A study of Drosophila melanogaster with 24 samples.

Results

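The genes slif, mnd, JhI-21, path, gb, sbm and NAAT1 encode amino acid transporters of Drosophila, and their transcripts were measured in heads and thoraces of flies on diets that lacked amino acids. They were taken from the deposited table by gene symbol, and all 7 were present among its 12126 genes and transposable elements. The libraries were made from poly(A) RNA of adult, once-mated females of 2 genotypes. Gcn2 flies carried the null allele Gcn2 1, in which a white marker gene takes the place of the whole open reading frame, and wDah, the white Dahomey strain into which the mutant was backcrossed, was the control. Flies of each genotype spent 3 days on synthetic food without arginine (-R), without methionine (-M) or without any amino acid (-All), or on the complete synthetic food with the amino acid proportions of yeast (Yaa). This gave 8 groups of 3 biological replicates, 24 libraries in all, each from 25 flies. The questions put to these genes were whether a deprived diet changed them within a genotype, whether the genotypes differed on a diet, and whether the response to a diet differed between the genotypes.

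Amino acid transporters are membrane proteins of several solute carrier (SLC) families that move amino acids across the plasma membrane or the membranes of lysosomes. Several of them feed amino acids to the TOR pathway, which couples nutrients to growth, and in flies this has been described best in the fat body, the organ that stores nutrients. GCN2 is a kinase that is activated by uncharged tRNA when amino acids run short, and it promotes translation of the transcription factor ATF4, whose targets in mammals include several amino acid transporters. Of the 7 genes, path (pathetic) belongs to the proton-assisted SLC36 family and is needed for growth. The genes sbm (sobremesa), JhI-21, mnd (minidiscs) and gb (genderblind) encode light chains of the SLC7 family, and slif (slimfast) encodes a cationic amino acid transporter that brings arginine into cells. NAAT1 is a nutrient amino acid transporter of the SLC6 family.

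In the Drosophila assembly BDGP6.54, slif (FBgn0037203) lies on chromosome 3L from 22881045 to 22893821 on the plus strand, and mnd (FBgn0002778) on 3L from 14985100 to 14991667 on the plus strand. The gene path (FBgn0036007) lies on 3L from 9494555 to 9505328, JhI-21 (FBgn0028425) on 2L from 12051755 to 12056042 and gb (FBgn0039487) on 3R from 27108467 to 27112270, all on the minus strand. On the X chromosome, sbm (FBgn0030574) runs from 14584733 to 14602580 and NAAT1 (FBgn0029762) from 5405238 to 5410849, both on the minus strand. Exons of JhI-21 share 295 bases with PLCXD on the opposite strand, and exons of gb share 865 bases with the antisense gene asRNA:CR45209. PLCXD had 694 to 1256 normalized counts and asRNA:CR45209 had 26 to 98.9. Whether the counting used strand is not given in the sources used here, so reads in the shared exons cannot be assigned with certainty. For the remaining 5 genes the annotation holds no gene whose exons overlap theirs.

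Per transcript length, path was the most abundant of the 7 genes, with a median of 170 FPKM (a level divided by transcript length, here on the scale of the normalized counts) over the 24 libraries and a range of 105 to 248 FPKM. Its median lay above those of 95.1% of all features in the table. The next level was that of sbm, at a median of 60.2 FPKM (44.6 to 130 FPKM), followed by JhI-21 at 30.0 FPKM (23.3 to 34.6 FPKM) and NAAT1 at 25.6 FPKM (20.4 to 32.0 FPKM). The lowest levels were those of mnd at 11.3 FPKM (10.5 to 17.1 FPKM), gb at 5.89 FPKM (4.98 to 9.12 FPKM) and slif at 5.56 FPKM (4.22 to 14.5 FPKM). In each of the 24 libraries path stood above sbm, sbm above JhI-21 and NAAT1, these above mnd, and mnd above gb and slif. JhI-21 and NAAT1 changed places between libraries, as did gb and slif. From the lowest to the highest library, slif spanned 3.44-fold, sbm 2.92-fold and path 2.37-fold, whereas gb, mnd, NAAT1 and JhI-21 spanned 1.83-fold, 1.63-fold, 1.57-fold and 1.48-fold.

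The libraries summed to 20.9 to 27.5 M normalized counts, and the spacing of their low values put them at 21.0 to 31.7 M reads. Gcn2 itself had 106 to 185 normalized counts (median 138) in the 12 Gcn2 libraries, against 597 to 701 (median 663) in the 12 wDah libraries, so the targeted gene followed the genotype labels while some of its transcript sequence was still counted. No measurement in the tables checks the diet labels in the same way, and every comparison of diets, or of genotypes on a diet, takes them as given. Markers of head and thorax tissues were present in every library, for example 7 flight muscle genes with summed normalized counts of 131030 or more and 13 photoreceptor genes with 265720 or more. These markers were not even across groups, and both minima belong to Gcn2 -R libraries. Summed counts of 6 neuron genes were 13835, 30881 and 33760 in Gcn2 -R replicates 1, 2 and 3, against 35867 to 48621 in the other groups. Those of 6 glia genes were 24139 to 32385 in Gcn2 -R, against 40263 to 41965 in wDah -R and 27308 to 34511 in Gcn2 Yaa. Whether this bears on the levels of the 7 genes was not tested. Transcripts of another tissue also varied. The table held 5 of an 18-gene list of ovary markers (eggshell and germline genes). Their summed count reached 5489 in replicate 2 of the Gcn2 flies on Yaa and 3545 in replicate 1 of those on -R. It was 1115 in Gcn2 -M replicate 2, 2708 and 1268 in wDah -All replicates 1 and 3, and 1035 in wDah -M replicate 1, against 24.3 to 476 in the other 18 libraries. For some results, values without these libraries are also given. Where they were left out together, wDah -All replicate 3 was kept. In RNA from whole heads and thoraces, a lower value can mean fewer cells of a type or less RNA per cell, and these cannot be told apart.

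Transcripts of the gut and fat body also moved with the groups. The summed normalized counts of 16 digestive enzyme genes were 77849 to 120050 on -R, 268130 to 293540 on -M and 308950 to 337060 on -All in Gcn2 flies, against 171200 to 201700 on Yaa. In wDah flies they were 289650 to 313460 on -R, 254980 to 302610 on -M and 363180 to 391650 on -All, against 167520 to 185720 on Yaa. Those of 10 fat body genes (yolk proteins, larval serum proteins and lipoproteins) were 685870 to 974560 on -R, 1724000 to 1937400 on -M and 3022400 to 3852200 on -All in Gcn2 flies, against 527840 to 529950 on Yaa, and 1306600 to 1452900, 606200 to 666830 and 3021800 to 3418900 in wDah flies, against 396010 to 470280 on Yaa. Gcn2 -R libraries thus had the lowest digestive enzyme sums of all groups. The part of these tissues in the levels of the 7 genes was not tested.

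Within genotypes, path and sbm had the largest changes. Each deprived diet was compared with Yaa by limma on log2(normalized count + 1), with p-values adjusted by the Benjamini-Hochberg method over all features of mean count 10 or more and a call at an adjusted p under 0.05. In Gcn2 flies, 2 of the 7 genes rose and none fell on -R, against 17.3% of all features called higher and 4.6% called lower. On -M, 1 rose and none fell (8.55% higher and 2.49% lower over all features), and on -All, 1 rose and none fell (10.6% higher and 3.54% lower). In wDah flies, 2 rose and none fell on -R (13.8% higher and 8.98% lower over all features), 3 rose and none fell on -M (15.3% higher and 10.4% lower), and 2 rose and none fell on -All (19.7% higher and 15.7% lower). The median log2 difference of the 7 genes was -0.01, 0.04 and 0.15 on -R, -M and -All in Gcn2 flies, against -0.03, -0.05 and -0.05 for all features, and 0.09, 0.08 and 0.06 in wDah flies, against -0.01, 0.01 and -0.02. The 3 diet comparisons of a genotype share its Yaa libraries. The gene path was called in all 6 of these comparisons, sbm and JhI-21 in 2 each, NAAT1 in 1 and slif, mnd and gb in none. Where the libraries of groups are said not to overlap, this is a description, since the share of all features without overlap was not counted.

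**Figure D1:**
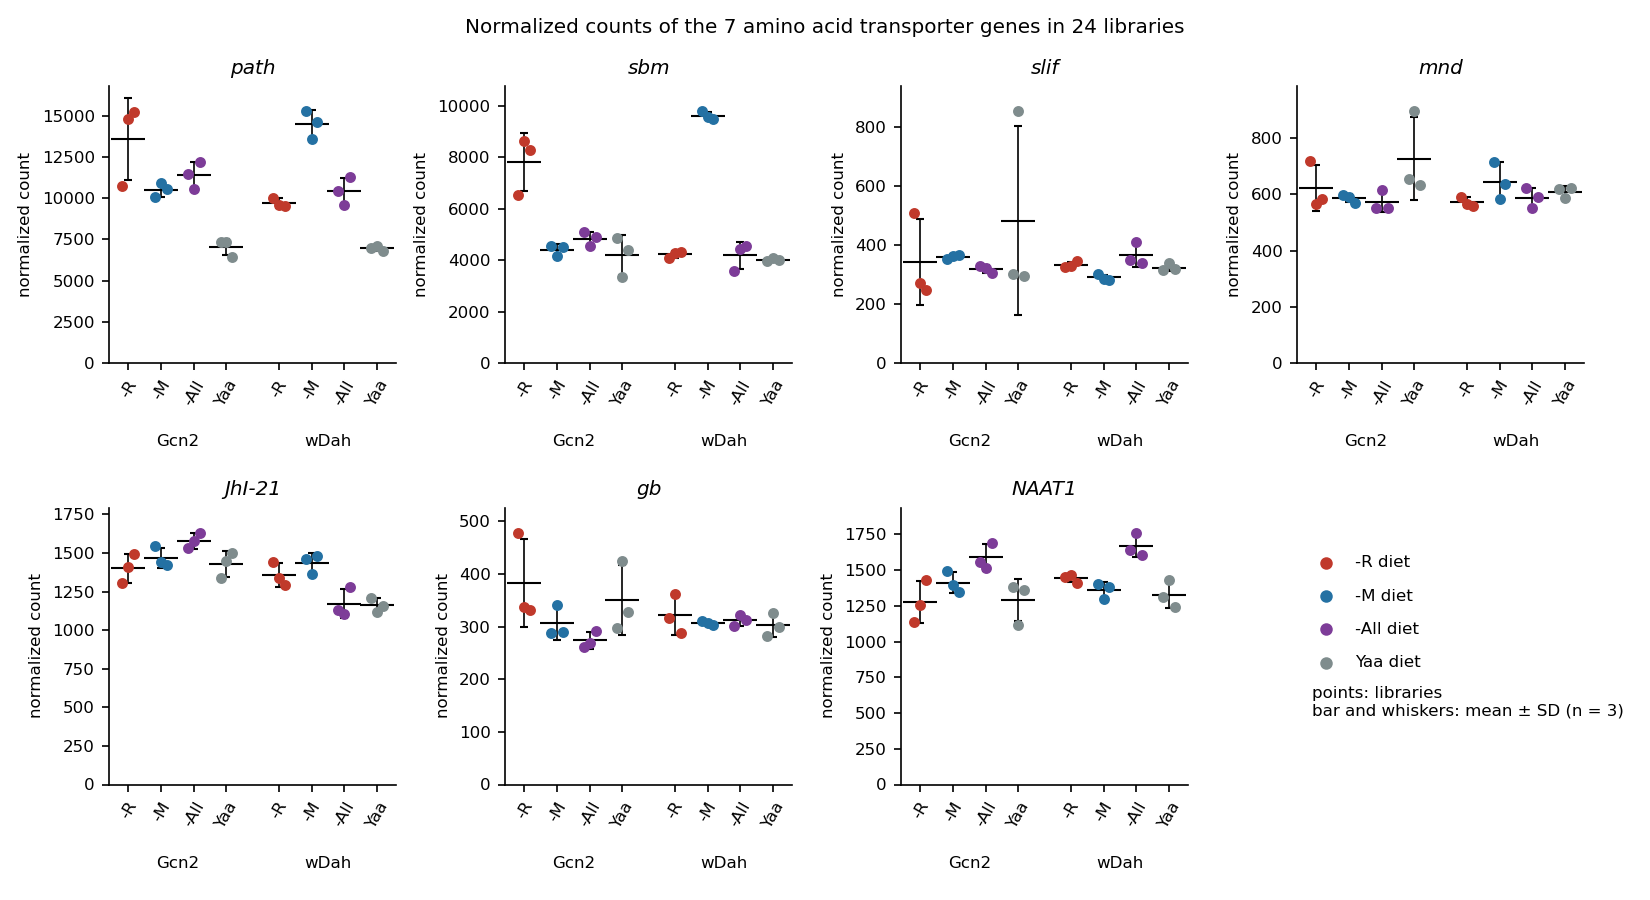
Normalized counts (y axis, starting at 0) of the 7 genes by genotype and diet (x axis). Each point is a library, and the bar and whiskers are the mean ± SD of 3 libraries. The counts of path on every deprived diet lie above those on Yaa in both genotypes, sbm stands at 6539 to 8650 in Gcn2 -R and at 9500 to 9794 in wDah -M and below these elsewhere, and a single Gcn2 Yaa library holds the highest value of slif (854) and of mnd (896).

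The SLC36 gene path rose on every deprived diet in both genotypes. In Gcn2 flies its normalized counts were 10737, 14792 and 15189 on -R, 10031, 10899 and 10551 on -M and 11454, 10555 and 12178 on -All, against 7324, 7322 and 6448 on Yaa. In wDah flies they were 10019, 9592 and 9494 on -R, 15262, 13585 and 14623 on -M and 10419, 9605 and 11243 on -All, against 6949, 7101 and 6800 on Yaa. All 9 libraries of deprived flies lay above all 3 Yaa libraries in each genotype. In Gcn2 flies, path was 0.93 ± 0.16 higher on -R (log2 difference ± SE, n = 3 each; adjusted p = 0.00808), 0.58 ± 0.072 higher on -M (adjusted p = 0.00318) and 0.70 ± 0.085 higher on -All (adjusted p = 0.00188). In wDah flies, it was 0.48 ± 0.034 higher on -R (adjusted p = 3.70e-05), 1.06 ± 0.048 higher on -M (adjusted p = 6.07e-06) and 0.58 ± 0.059 higher on -All (adjusted p = 2.87e-04). These correspond to a 1.91-fold, 1.49-fold and 1.62-fold higher level on -R, -M and -All in Gcn2 flies, and to a 1.40-fold, 2.08-fold and 1.5-fold higher level in wDah flies. The largest rise was thus on -R in Gcn2 flies and on -M in wDah flies. The calls held in every alternative fit, although with the libraries rescaled to equal totals, in place of the deposited size factors, the difference on -All was 0.37 in Gcn2 flies and 0.30 in wDah flies.

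The 8 groups ordered path from wDah -M (14490 ± 846, mean normalized count ± SD, n = 3) and Gcn2 -R (13573 ± 2464) through Gcn2 -All (11396 ± 813), Gcn2 -M (10494 ± 437), wDah -All (10422 ± 819) and wDah -R (9702 ± 279) to Gcn2 Yaa (7031 ± 505) and wDah Yaa (6950 ± 150.5). Of the 7 pairs of neighbours in this order, 6 overlapped in their libraries, and the pair that did not was wDah -R and Gcn2 Yaa, the step between deprived and complete diets. Gcn2 -R was the most spread of the groups, since its replicate 1, the library with many ovary transcripts, was at 10737 and the other 2 libraries were at 14792 and 15189. That replicate also had the lowest summed neuron, glia and flight muscle counts of all libraries (13835, 24139 and 131030).

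The SLC7 light chain gene sbm, described in glia and in the timing of development and brain growth, was called on -R in Gcn2 flies and on -M in wDah flies, with the diets as labelled. Its normalized counts in Gcn2 flies were 6539, 8650 and 8290 on -R, 4543, 4147 and 4523 on -M and 5079, 4538 and 4895 on -All, against 4843, 3356 and 4397 on Yaa. In wDah flies they were 4081, 4281 and 4326 on -R, 9794, 9581 and 9500 on -M and 3595, 4448 and 4545 on -All, against 3960, 4070 and 4002 on Yaa. The 3 Gcn2 -R libraries and the 3 wDah -M libraries thus lay above the other 18 libraries. On -R, sbm was 0.90 ± 0.18 higher than on Yaa in Gcn2 flies (1.87-fold, adjusted p = 0.0144) and 0.08 ± 0.034 higher in wDah flies (adjusted p = 0.144). On -M it was 0.08 ± 0.14 higher in Gcn2 flies (adjusted p = 0.743) and 1.26 ± 0.033 higher in wDah flies (2.40-fold, adjusted p = 3.99e-07). On -All the differences were 0.22 ± 0.14 in Gcn2 flies (adjusted p = 0.342) and 0.06 ± 0.085 in wDah flies (adjusted p = 0.640), with 95% confidence intervals of -0.10 to 0.54 and -0.14 to 0.26.

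The rise of sbm in Gcn2 -R flies rested on small groups. It missed the threshold without Gcn2 Yaa replicate 3 (log2 difference 0.95, adjusted p = 0.0509), without Gcn2 -R replicate 2 (0.83, adjusted p = 0.0604) and without Gcn2 -R replicate 3 (0.86, adjusted p = 0.0574). Without the libraries that held many ovary transcripts, Gcn2 Yaa replicate 2 and Gcn2 -R replicate 1, it was 0.88 with an adjusted p of 8.21e-05. In wDah -All flies, replicate 1 had the lowest sbm count, and without it sbm was 0.16 higher than on Yaa (adjusted p = 0.0132). The group means of sbm were 9625 ± 152 in wDah -M (normalized counts, SD, n = 3) and 7826 ± 1129 in Gcn2 -R, and these 2 groups overlapped neither each other nor any other group. The other 6 groups ran from Gcn2 -All (4837 ± 275) down to wDah Yaa (4011 ± 55.5), with Gcn2 -M, wDah -R, Gcn2 Yaa and wDah -All between them, and every pair of neighbours among them overlapped.

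**Figure D2:**
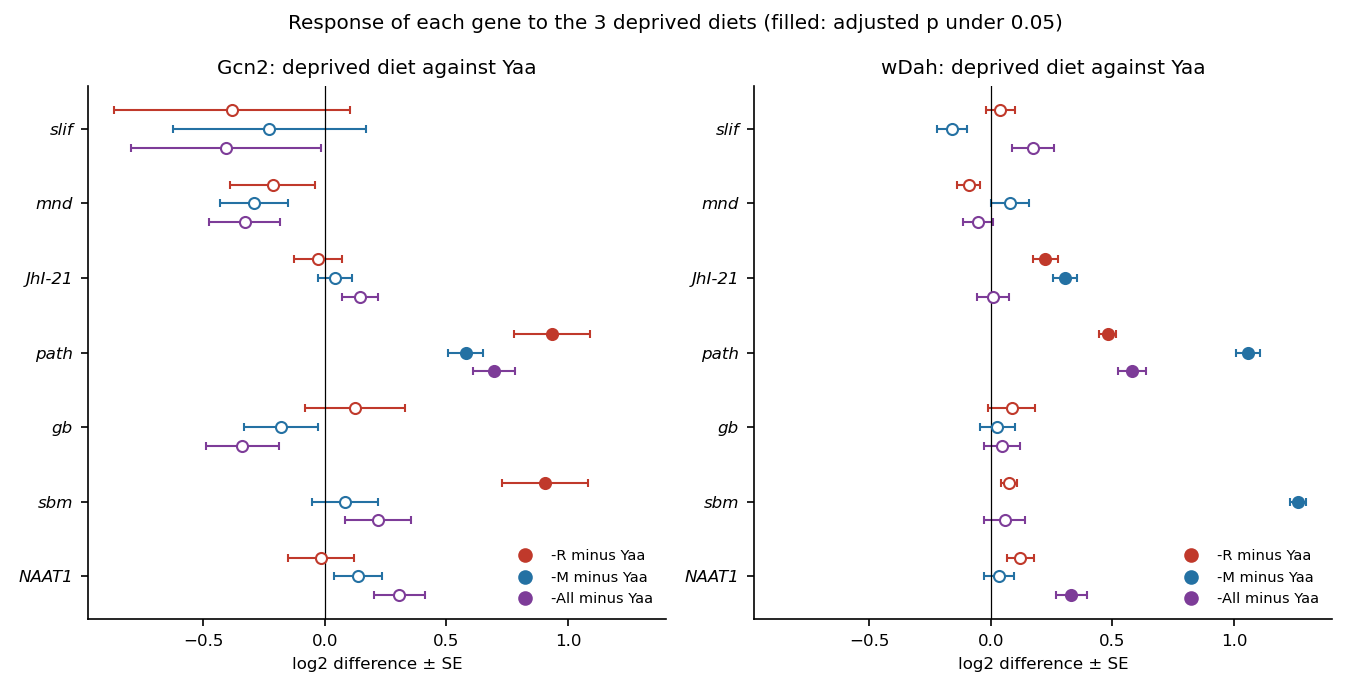
Log2 difference ± SE (x axis) between each deprived diet and Yaa for the 7 genes (y axis), in Gcn2 flies on the left and wDah flies on the right, with filled points for an adjusted p under 0.05. The gene path is filled on all 3 diets in both panels, between 0.48 and 1.06, while sbm is filled at 0.90 on -R in Gcn2 flies and at 1.26 on -M in wDah flies.

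JhI-21 encodes a light chain related to the leucine transporters of mammals and has been tied to the sensing of dietary amino acids. In Gcn2 flies its normalized counts were 1305, 1408 and 1493 on -R, 1545, 1443 and 1423 on -M and 1531, 1576 and 1632 on -All, against 1340, 1448 and 1499 on Yaa. In wDah flies they were 1443, 1336 and 1293 on -R, 1464, 1363 and 1479 on -M and 1131, 1102 and 1277 on -All, against 1209, 1115 and 1160 on Yaa. In wDah flies the -R and -M libraries lay above all Yaa libraries and the -All libraries overlapped them, whereas in Gcn2 flies the -All libraries alone lay above all Yaa libraries. The differences passed the test in wDah flies on -R (0.22 ± 0.052, adjusted p = 0.0168) and on -M (0.31 ± 0.049, adjusted p = 0.00344). The difference on -All was 0.01 ± 0.066 in wDah flies (adjusted p = 0.934) and 0.15 ± 0.074 in Gcn2 flies (adjusted p = 0.254). The call on -R was lost without wDah Yaa replicate 2 (0.20, adjusted p = 0.0590) or replicate 3 (0.22, adjusted p = 0.0539), and with libraries rescaled to equal totals it was 0.08 (adjusted p = 0.238).

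NAAT1, which in the gut takes up essential amino acids from food, was highest in flies without any dietary amino acid. Its normalized counts were 1560, 1513 and 1693 in Gcn2 -All flies, against 1382, 1119 and 1363 in Gcn2 Yaa flies. In wDah flies they were 1644, 1762 and 1607 on -All, against 1312, 1434 and 1242 on Yaa. The -All libraries lay above the Yaa libraries in both genotypes. The difference was 0.31 ± 0.10 in Gcn2 flies, which missed the threshold (adjusted p = 0.103), and 0.33 ± 0.064 in wDah flies, which passed it (adjusted p = 0.00605). Rescaled to equal totals, the difference in wDah flies was 0.05 (adjusted p = 0.544). On -R and -M, NAAT1 had 1139 to 1430 and 1349 to 1491 normalized counts in Gcn2 flies, and 1412 to 1469 and 1295 to 1405 in wDah flies, and none of these 4 comparisons with Yaa passed the test, although that of wDah -R did so without wDah Yaa replicate 2 (0.18, adjusted p = 0.0370). The 2 -All groups, at 1671 ± 81 in wDah and 1589 ± 93 in Gcn2 flies (mean normalized count ± SD, n = 3), overlapped each other and no other group. The summed digestive enzyme and fat body counts were also highest on -All in each genotype. Gcn2 -R had both the lowest mean of NAAT1 (1275 ± 146) and the lowest digestive enzyme sums. The part of these tissues in the level of NAAT1 was not tested.

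The arginine transporter gene slif was called in no diet comparison, on the diet without arginine included. In Gcn2 flies its normalized counts were 510, 270 and 249 on -R, 353, 363 and 368 on -M and 331, 322 and 304 on -All, against 301, 854 and 294 on Yaa. In wDah flies they were 325, 329 and 344 on -R, 301, 286 and 283 on -M and 350, 412 and 338 on -All, against 316, 338 and 318 on Yaa. The values of 854 and 510 belong to Gcn2 Yaa replicate 2 and Gcn2 -R replicate 1, the libraries with the most ovary transcripts, and all other libraries lay between 249 and 412. The log2 difference on -R was -0.38 ± 0.49 in Gcn2 flies (adjusted p = 0.591) and 0.04 ± 0.059 in wDah flies (adjusted p = 0.676), with 95% confidence intervals of -1.55 to 0.79 and -0.10 to 0.18. In wDah flies the -M libraries lay below all Yaa libraries, by -0.16 ± 0.063 (adjusted p = 0.0988), and the -All libraries above them, by 0.17 ± 0.087 (adjusted p = 0.162). In Gcn2 flies the difference on -M was -0.23 ± 0.40 (adjusted p = 0.765) and turned to 0.28 (adjusted p = 0.0261) without Gcn2 Yaa replicate 2.

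The minidiscs gene mnd, whose product carries leucine and acts in fat body and insulin-producing cells, and gb, a glial transporter related to the cystine and glutamate exchanger of mammals, were called in none of the 13 comparisons made here. The normalized counts of mnd ranged from 550 to 717 in 23 libraries and reached 896 in Gcn2 Yaa replicate 2. In Gcn2 flies the -M libraries (599, 590 and 570) and the -All libraries (550, 614 and 553) of mnd lay below all Yaa libraries (653, 896 and 631), by -0.29 ± 0.14 (adjusted p = 0.267) and -0.33 ± 0.15 (adjusted p = 0.199). The normalized counts of gb ranged from 261 to 361 in 22 libraries, and were 478 in Gcn2 -R replicate 1 and 425 in Gcn2 Yaa replicate 2. The -All libraries of gb in Gcn2 flies (261, 268 and 292) lay below the Yaa libraries (298, 425 and 327), by -0.34 ± 0.15 (adjusted p = 0.195). For both genes, all 7 pairs of neighbouring groups in the order of their means overlapped. Rescaled to equal totals, mnd and gb were called lower in Gcn2 -All flies (-0.65 and -0.66, adjusted p = 0.0210 for both), as was mnd in wDah -R (-0.24, adjusted p = 0.00593) and wDah -All flies (-0.34, adjusted p = 0.00247) and gb in wDah -All flies (-0.24, adjusted p = 0.0281). That scaling moved the median of all features to -0.37, -0.16 and -0.30 in Gcn2 -All, wDah -R and wDah -All. In these comparisons 4265, 3963 and 5892 features were then called lower (10960, 10904 and 10959 tested as reported).

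**Figure D3:**
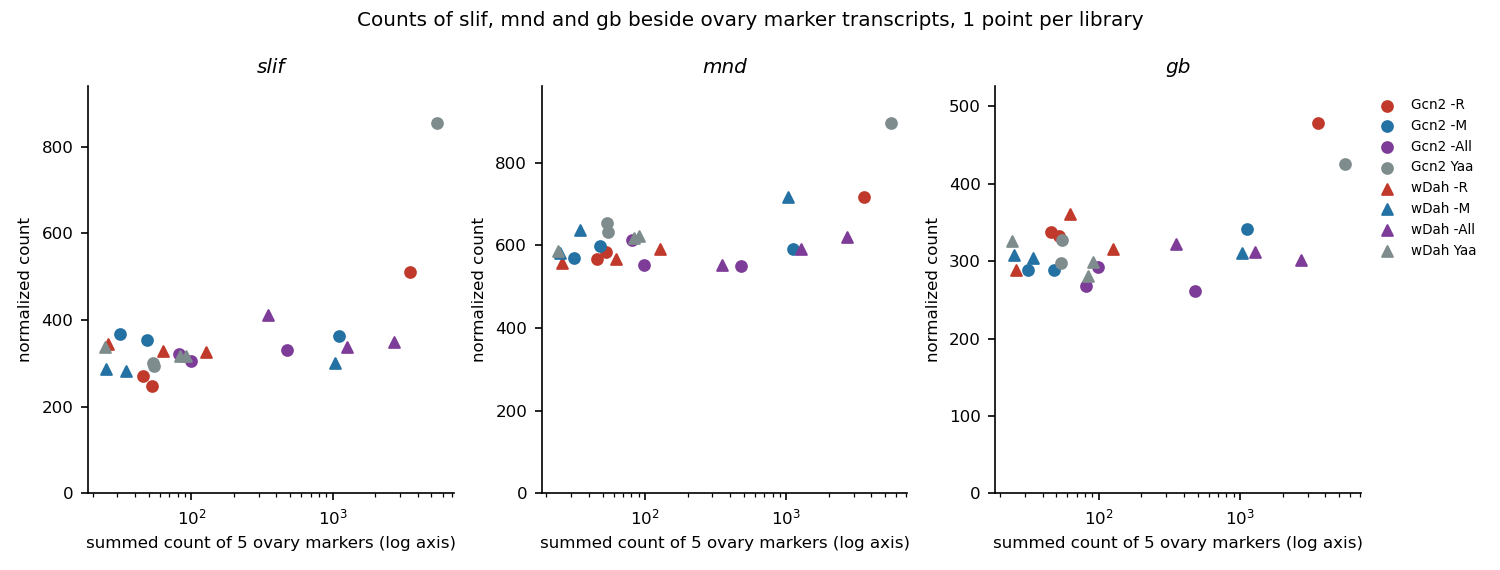
Normalized counts of slif, mnd and gb (y axes, starting at 0) against the summed count of 5 ovary markers (log axis), 1 point per library, with circles for Gcn2 and triangles for wDah. The 2 libraries with summed ovary counts of 3545 and 5489 hold the 2 highest values of each gene, whereas wDah -All libraries with 1268 and 2708 do not stand out.

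Between the 2 libraries with the most ovary transcripts and the rest, slif, mnd and gb moved the same way. Of the 4 libraries with summed ovary counts of 1035 to 2708, wDah -M replicate 1 had 717 normalized counts of mnd, against 582 and 638 in the other wDah -M libraries, and Gcn2 -M replicate 2 had 342 of gb, against 288 and 289 in the other Gcn2 -M libraries. The wDah -All replicates 1 and 3 lay within the range of the remaining libraries for slif, mnd and gb. The part of ovary RNA in the levels of these genes was not tested. For path and sbm the same 2 libraries were not high, since Gcn2 Yaa replicate 2 had the lowest sbm count of all 24 libraries (3356) and Gcn2 -R replicate 1 the lowest path and sbm counts of its group.

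Between genotypes, sbm and path differed in opposite directions on the libraries labelled -R and on those labelled -M, whose diet labels could not be checked from the tables. On Yaa, none of the 7 genes passed the test between Gcn2 and wDah flies by limma, against 1.38% of all features called higher and 1.31% called lower, and 1 of the 7 had an unadjusted p under 0.05. On -R, 2 were higher and none lower in Gcn2 flies (27.7% higher and 18.2% lower over all features), on -M, 1 was higher and 2 were lower (12.2% higher and 10.9% lower), and on -All, 1 was higher and none lower (0.56% higher and 0.514% lower). On -R, sbm was 0.88 ± 0.12 higher in Gcn2 than in wDah flies (1.84-fold, adjusted p = 0.00164), and path was 0.47 ± 0.14 higher (1.38-fold, adjusted p = 0.0363). On -M, sbm was lower in Gcn2 flies, by a log2 difference of -1.13 ± 0.049 (a ratio of 0.457, adjusted p = 7.39e-06), and so was path, by -0.46 ± 0.058 (a ratio of 0.725, adjusted p = 9.33e-04). In these 4 comparisons the libraries of the genotypes did not overlap, and how many of all features were separate in this way was not counted. On Yaa the differences were 0.05 ± 0.13 for sbm (adjusted p = 0.840) and 0.01 ± 0.065 for path (adjusted p = 0.909), with 95% confidence intervals of -0.26 to 0.36 and -0.14 to 0.17.

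The call of path on -R was lost when wDah -R replicate 1, 2 or 3 was left out (adjusted p = 0.0883, 0.105 and 0.108) and without Gcn2 -R replicate 2 or 3 (adjusted p = 0.0961 and 0.0910), with differences of 0.38 to 0.49. Without Gcn2 -R replicate 1, the library with many ovary transcripts and the lowest neuron, glia and flight muscle sums, the difference of path was 0.63 (adjusted p = 2.95e-05). The calls of sbm on -R and of both genes on -M held in every alternative. The SE of path between genotypes was largest on -R (0.14), where the Gcn2 libraries ran from 10737 to 15189. For sbm the SE on -R was 0.12, with Gcn2 -R libraries from 6539 to 8650. It was 0.13 on Yaa, with Gcn2 Yaa libraries from 3356 to 4843.

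Of the other genes, JhI-21 was higher in Gcn2 than in wDah flies on -All, at 1531 to 1632 against 1102 to 1277 normalized counts (0.43 ± 0.071, 1.35-fold, adjusted p = 0.0354). On Yaa it had 1340 to 1499 normalized counts in Gcn2 flies, against 1115 to 1209 in wDah flies, a difference of 0.30 ± 0.067 that missed the threshold (adjusted p = 0.0821). The libraries did not overlap on either diet, and on -R and -M they did. The call on -All was lost without wDah -All replicate 1 (adjusted p = 0.0993) or 2 (adjusted p = 0.0817) and without Gcn2 -All replicate 1 (adjusted p = 0.103), 2 (adjusted p = 0.0822) or 3 (adjusted p = 0.151), with differences of 0.39 to 0.46. The difference on Yaa passed the test without Gcn2 Yaa replicate 2 (0.29, adjusted p = 0.0239), as did that of sbm (0.20, adjusted p = 0.0339). The gene slif was higher in Gcn2 flies on -M, at 353, 363 and 368 normalized counts against 301, 286 and 283 in wDah flies (0.32 ± 0.062, adjusted p = 0.00877). On -R, slif was lower in Gcn2 flies once replicate 1 of Gcn2 -R was left out (-0.36, adjusted p = 0.00537), and over all libraries the difference was -0.04 ± 0.27 (adjusted p = 0.918). For mnd, gb and NAAT1 no comparison of the genotypes passed the test, except that NAAT1 on -R was called at -0.27 (adjusted p = 0.0496) without Gcn2 -R replicate 3.

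**Figure D4:**
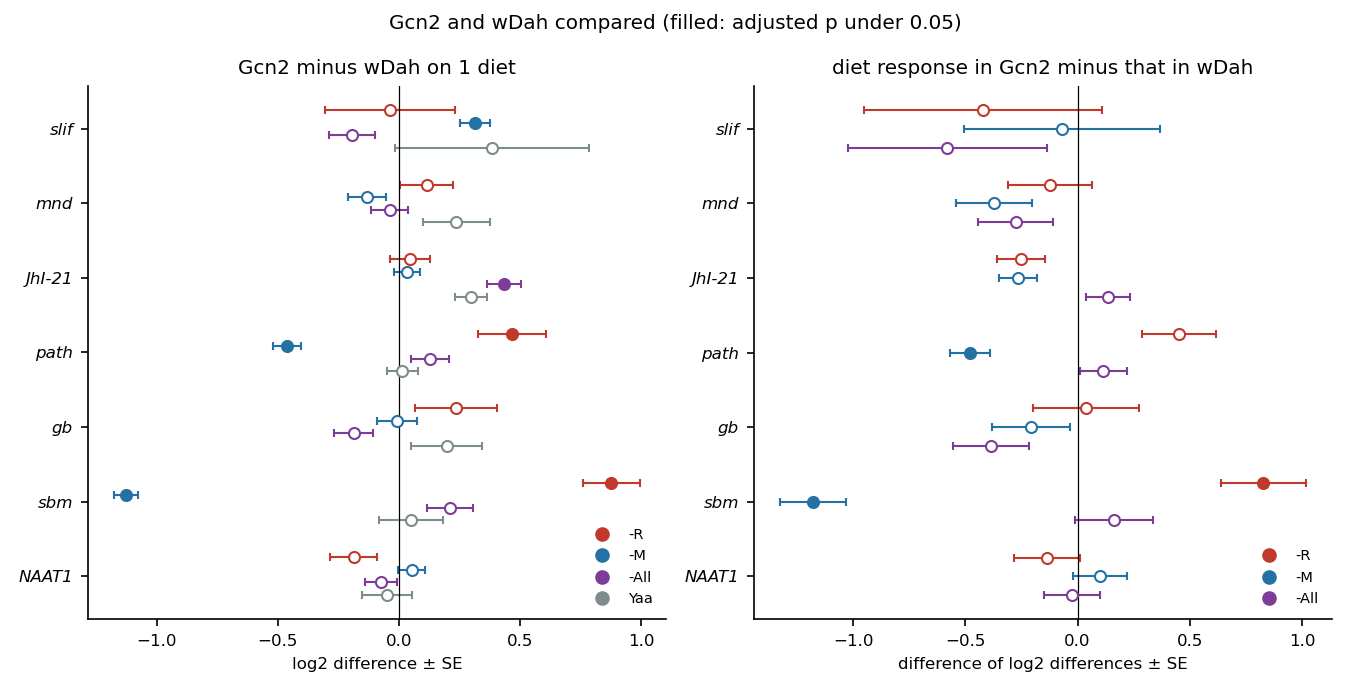
Left, log2 difference ± SE (x axis) between Gcn2 and wDah flies on each diet for the 7 genes (y axis). Right, the log2 response to each deprived diet in Gcn2 flies minus that in wDah flies, ± SE, with filled points for an adjusted p under 0.05 in both panels. In the left panel sbm lies at 0.88 on -R and at -1.13 on -M, and in the right panel at 0.83 and -1.18, with path on the same sides of 0.

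The difference between the genotypes in their response to a diet was tested as an interaction over 12 libraries. On -R, 1 of the 7 genes had a higher response in Gcn2 than in wDah flies and none a lower one, against 15.9% higher and 5.63% lower over all features. On -M, none had a higher and 2 a lower response (4.21% higher and 2.71% lower). On -All, none of the 7 passed the test by limma in either direction (0.391% higher and 0.491% lower), and 1, gb, had an unadjusted p under 0.05 (-0.38 ± 0.17, adjusted p = 0.487). The responses of sbm differed by 0.83 ± 0.19 on -R (adjusted p = 0.00953) and by -1.18 ± 0.15 on -M (adjusted p = 5.21e-04). Those of path differed by 0.45 ± 0.16 on -R, which missed the threshold (adjusted p = 0.0761), and by -0.48 ± 0.088 on -M (adjusted p = 0.00686). The Gcn2 flies had the larger response of sbm on -R and the smaller one on -M, and for path the values ran the same way. Without the libraries that held many ovary transcripts, sbm differed by 0.80 on -R and -1.28 on -M, and path by 0.64 on -R (adjusted p = 6.09e-05) and -0.44 on -M (adjusted p = 0.0138). Leaving out Gcn2 -R replicate 1 alone gave path a difference of 0.61 on -R (adjusted p = 3.74e-04). JhI-21 responded less in Gcn2 flies on -R (-0.25 ± 0.11, adjusted p = 0.120) and on -M (-0.26 ± 0.084, adjusted p = 0.0923), both short of the threshold. The interaction of slif on -M was -0.07 ± 0.44 (adjusted p = 0.941) and turned to 0.44 (adjusted p = 0.00581) without Gcn2 Yaa replicate 2.

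Other amino acid transporter genes were counted beside these 7, from lists of 36 genes chosen by family, of which the table held 33. In Gcn2 flies, 7 rose and 3 fell of 32 tested on -R (17.3% higher and 4.6% lower over all features), 5 rose and none fell of 33 on -M (8.55% and 2.49%), and 7 rose and none fell of 33 on -All (10.6% and 3.54%). In wDah flies, 8 rose and 2 fell of 33 on -R (13.8% and 8.98%), 10 rose and 5 fell on -M (15.3% and 10.4%), and 10 rose and 6 fell on -All (19.7% and 15.7%). The median log2 differences of the 33 were -0.14, 0.04 and 0.03 on -R, -M and -All in Gcn2 flies and 0.05, 0.06 and 0.05 in wDah flies. Between genotypes, none passed the test by limma on Yaa (1.38% higher and 1.31% lower over all features) or on -All (0.56% and 0.514%). On these diets 1 and 6 had an unadjusted p under 0.05. On -R, 7 of 32 were higher and 12 lower in Gcn2 flies (27.7% higher and 18.2% lower over all features), and on -M, 3 of 33 were higher and 5 lower (12.2% and 10.9%).

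Of the 6 listed genes of the SLC7 family and its heavy chain, none was called in Gcn2 -M flies (8.55% higher and 2.49% lower over all features), and 5 rose and 1 fell in wDah -M flies (15.3% and 10.4%). The difference between these responses passed the interaction test for none of the 6, with an adjusted p of 0.111 for CD98hc and 0.150 for CG5535. CG5535, a relative of slif in the cationic transporter family, rose in wDah -M flies to a mean of 394 normalized counts, against 232 on Yaa (0.74 ± 0.14, adjusted p = 0.00730), and CD98hc, the heavy chain with which SLC7 light chains pair, to 5080 against 4135 (0.29 ± 0.052, adjusted p = 0.00504). CD98hc also rose on -R in Gcn2 flies, to 5776 against 4064 (0.51 ± 0.099, adjusted p = 0.0148). Its response to -R was larger in Gcn2 than in wDah flies by the interaction test (0.45 ± 0.10, adjusted p = 0.00913). CD98hc was named after its values were seen. CG5535 was lower in Gcn2 -M than in wDah -M flies (-0.69 ± 0.16, adjusted p = 0.0178). CG1139, a relative of path in the SLC36 family, rose most on -All, to a mean of 295 normalized counts in Gcn2 -All flies, against 71.8 in Gcn2 Yaa flies (1.94 ± 0.30, adjusted p = 0.00562), and to 211 in wDah -All flies, against 75.3 in wDah Yaa flies (1.31 ± 0.39, adjusted p = 0.0343). CG13743, listed with the SLC38 family, fell in wDah flies on -R, -M and -All (-0.24, -0.35 and -0.34, adjusted p = 0.00258, 0.00199 and 0.00212).

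In the SLC6 family, to which NAAT1 belongs, CG13795 rose in all 6 diet comparisons. Its mean was 2330, 1668 and 1551 normalized counts on -R, -M and -All in Gcn2 flies, against 785 on Yaa, and 1388, 1190 and 1563 in wDah flies, against 830 on Yaa. The largest of these changes was that of Gcn2 -R (1.56 ± 0.12, adjusted p = 3.21e-04). CG13795 lies beside CG13793 and CG13794, which are related to it, and how reads were divided among the 3 could not be checked here. CG13794 was 1.08 ± 0.11 higher in Gcn2 than in wDah flies on -R (adjusted p = 4.58e-04) and 0.61 ± 0.069 higher on -M (adjusted p = 5.80e-04), so unlike sbm it was higher in Gcn2 flies on both diets. CD98hc, CG5535 and CG1698 were, like sbm, higher in Gcn2 flies on -R (0.42, 0.91 and 0.92, adjusted p = 0.00773, 0.0347 and 0.00177). On -M they were lower (-0.28, -0.69 and -0.48, adjusted p = 0.0125, 0.0178 and 0.0491). None of them passed the interaction test on -M, and CD98hc and CG1698 passed it on -R. GlyT, a glycine transporter gene, fell on -R in Gcn2 flies (-0.59 ± 0.17, adjusted p = 0.0498) and in wDah flies (-0.19 ± 0.048, adjusted p = 0.0262). Eaat2, a transporter of acidic amino acids in glia, had a mean of 3303 normalized counts in Gcn2 -R flies, against 6043 in wDah -R flies (-0.90 ± 0.19, adjusted p = 0.00918). The summed count of 6 glia genes was also lower in Gcn2 -R, at 24139 to 32385 against 40263 to 41965 in wDah -R. In wDah flies Eaat2 fell on -M and on -All (-0.30 on both, adjusted p = 0.00335 and 0.0241). The glia sums of these groups were higher than on Yaa, at 38948 to 39327 and 40526 to 42143 against 34701 to 35811. The part of glia RNA in the level of Eaat2 was not tested.

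CG13384, listed with the SLC36 and SLC38 families, rose in 5 of the 6 diet comparisons. The differences were 0.46 ± 0.088 on -M (adjusted p = 0.0192) and 0.37 on -All (adjusted p = 0.0325) in Gcn2 flies, and 0.42, 0.27 and 0.24 on -R, -M and -All in wDah flies (adjusted p = 4.94e-04, 0.00757 and 0.0115), and the value on -R in Gcn2 flies was 0.02 (adjusted p = 0.901). CG4476 rose in wDah -R flies, to a mean of 88.0 normalized counts, against 36.5 on Yaa (1.33 ± 0.28, adjusted p = 0.0112). CG13248, an SLC7 gene, fell in Gcn2 -R flies (-0.53 ± 0.14, adjusted p = 0.0434), the vesicular GABA transporter gene VGAT fell in wDah -M flies (-0.35 ± 0.062, adjusted p = 0.00507), and List fell in wDah -All flies (-0.35 ± 0.074, adjusted p = 0.00926). Between genotypes, CG1698 was higher in Gcn2 flies on -R (0.92 ± 0.12, adjusted p = 0.00177) and CG8785 on -M (0.54 ± 0.099, adjusted p = 0.00627), while CG13796 was lower on -R (-0.70 ± 0.15, adjusted p = 0.0106) and CG16700 on -M (-0.58 ± 0.061, adjusted p = 3.98e-04). In the interaction on -R, 5 of the 33 genes had a higher response in Gcn2 flies and 3 a lower one (15.9% higher and 5.63% lower over all features). The higher ones were led by CG13794 (0.93) and CG1698 (0.90), and the lower ones by CG15279 (-0.51) and CG13384 (-0.40). On -M, 2 had a higher response, CG13795 (0.58) and CG13794 (0.47), and 1 a lower one, CG16700 (-0.52), against 4.21% and 2.71% over all features. On -All none of the 33 passed the test by limma (0.391% and 0.491% over all features), and 3 had an unadjusted p under 0.05.

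**Figure D5:**
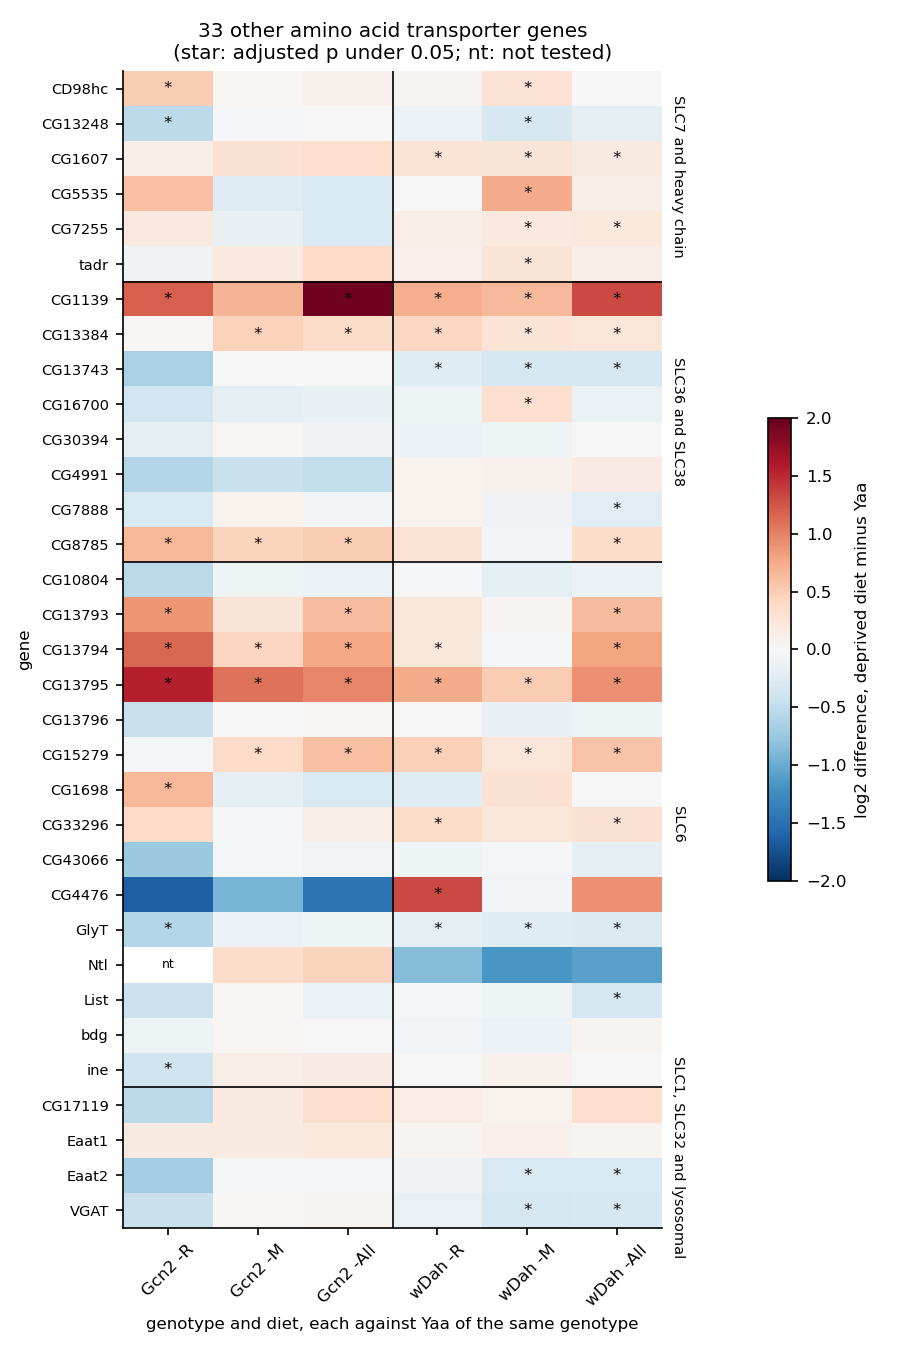
Log2 difference between each deprived diet and Yaa (colour, from blue at -2 to red at 2) for 33 other amino acid transporter genes (rows, by family) in Gcn2 and wDah flies (columns), with stars for an adjusted p under 0.05. CG1139 and CG13795 are the reddest rows, at up to 1.94 and 1.56, and in the SLC7 block none of the 6 rows has a star in Gcn2 -M and 5 have a red starred cell in wDah -M, although none of the 6 passed the interaction test on -M.

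Across the 24 libraries, path and sbm were the most alike of the 21 pairs among the 7 genes, with a Pearson r of 0.77 between their log2 normalized counts, followed by slif and mnd (0.67), slif and gb (0.60) and mnd and gb (0.57). The last 3 pairs share the 2 libraries with the most ovary transcripts. The most negative value was that of mnd and NAAT1 (-0.62). Libraries share groups, size factors and tissue composition, so these coefficients are descriptions. Among 8585 features with a mean count of 100 or more, the patterns most like path were those of whd, a carnitine palmitoyltransferase gene (0.88), and of the peroxiredoxin gene Prx2540-2 (0.88). Those most like sbm were Cyp6a20, a cytochrome P450 gene (0.85), and LeuRS, the leucyl-tRNA synthetase gene (0.85). Those most like slif were yin, which encodes a peptide transporter (0.93), and the cell cycle gene Rca1 (0.92), and those most like mnd were the replication gene Cdc45 (0.89) and CG33156 (0.89). The gene gb was most like Xpd, a subunit of TFIIH (0.87), and the nucleoporin gene Nup93-1 (0.86). NAAT1 was most like SLC5A11 (0.88) and Gp150 (0.87), and JhI-21 most like Mcr (0.70) and the transposable element FBti0019466 (0.69). The genes most like slif, mnd and gb had their highest counts well above their means, at 1596 against 671 for yin and 545 against 138 for Cdc45.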

How the data were processed

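Poly(A) RNA of head and thorax was sequenced with 100 bp single-end reads in 24 libraries. Per the methods and the submitters' processing notes, the authors ran kallisto 0.46.2 on BDGP6.32 transcripts (Ensembl build 103), summed estimated counts by gene and divided them by DESeq2 1.24.0 size factors in R 3.6.3. The deposited normalized counts are therefore a signal and not raw counts, and the deposited FPKM are the same values divided by a length per gene. Low values did not fall on whole reads in all cases (86.4% to 88.6% within 0.1 of a multiple), so no count model was fitted, and precision rests on 3 libraries a group.

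Tests used limma 3.58.1 (lmFit, eBayes with trend) in R 4.3.3, two-sided, on log2(normalized count + 1), in which a pseudocount of 1 makes the changes of low genes smaller. The libraries of a comparison were fitted alone, over features with a mean of at least 10. There were 13 comparisons, namely 6 of a diet with Yaa, 4 of the genotypes on a diet and 3 interactions. The test was also run on simulated data with known changes. Their noise was independent and equally spread in every group, unlike that of these libraries, and no result here rests on that run. The members and gene lists were chosen with earlier results of these data known. Besides the 7 genes, the 2 largest rises and falls called among other transporters with a mean of at least 50, and the 2 features most like each gene, are named. Gene symbols in the lists were matched through RefSeq, and 33 of 36 were in the table. Gene positions come from the BDGP6.54 annotation.

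Alternatives were pseudocounts of 0.5 and 10, no filter, the pairwise tables with their own size factors, equal totals, 1 fit of all libraries, array weights, a replicate block, each library left out, and 5 libraries with many ovary transcripts left out (replicate 2 of Gcn2 Yaa and of Gcn2 -M, and replicate 1 of Gcn2 -R, wDah -M and wDah -All). Same-numbered libraries deviated together in every pair for Gcn2 -M and Gcn2 Yaa alone (r of 0.27, 0.48 and 0.23), and the block changed no call there. The deposited fold changes and p-values of the authors' comparisons were not used. Sequences were not used here, and promoter and protein comparisons were not run.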

Additional observations from a re-analysis of the deposited data

Results flagged for a closer look

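In 3 cases the response of a gene to a diet differed between Gcn2 and wDah flies by the interaction test of limma. The response of sbm to -R was larger in Gcn2 flies by 0.83 (log2, adjusted p = 0.00953), with 3 Gcn2 -R libraries at 6539 to 8650 normalized counts and 3 wDah -R libraries at 4081 to 4326. Its response to -M was smaller in Gcn2 flies, by a difference of -1.18 (adjusted p = 5.21e-04), with Gcn2 -M libraries at 4147 to 4543 and wDah -M libraries at 9500 to 9794. The response of path to -M differed by -0.48 (adjusted p = 0.00686), with Gcn2 -M libraries at 10031 to 10899 and wDah -M libraries at 13585 to 15262. All 3 held in each of the 20 alternatives run. The 2 tests of sbm share the Yaa libraries of both genotypes. All 3 cases rest on the diet labels of the -R and -M libraries, which no value in the tables checks.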

How the results depend on the processing

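Across 13 comparisons, 1435 differences of the 7 genes were recomputed, of which 21 lost a call, 26 gained one and 6 turned round with a call. None of the 20 called differences changed sign, and 78 of the recomputed values changed sign with no call on either side. Pseudocounts of 0.5 and 10, no filter and the pairwise tables (diet comparisons alone) changed no call. Rescaled to equal totals, 5 genes were called in wDah -All, with JhI-21 at -0.27, gb at -0.24 and sbm at -0.23, 3 in Gcn2 -All and 2 in the -R interaction. In that interaction 1888 features were then called higher and 509 lower (1744 and 619 as reported). That scaling moved the median of all features to -0.16, -0.09 and -0.30 on -R, -M and -All in wDah flies, to -0.10, -0.21 and -0.37 in Gcn2 flies and to 0.10 between genotypes on -R. The calls over all features then split into 874 higher and 3963 lower in wDah -R (1502 and 979 as reported), 1019 and 2304 in wDah -M (1669 and 1140), 941 and 5892 in wDah -All (2154 and 1724), 1538 and 1024 in Gcn2 -R (1897 and 503), 653 and 1106 in Gcn2 -M (936 and 272), 723 and 4265 in Gcn2 -All (1161 and 388), 1040 and 1486 between genotypes on -M (1329 and 1188), and 375 and 468 in the -M interaction (463 and 298). One fit of all 24 libraries called 3 genes in Gcn2 -All, 1 between genotypes on Yaa and 2 in the -R interaction, and the call of slif between genotypes on -M was lost (adjusted p = 0.563). Array weights called 2, 1 and 2 of the 7 in these same comparisons. With the replicate block, 1 gene stayed called in Gcn2 -R, where sbm was lost (adjusted p = 0.0700), and 1 between genotypes on -R, where path was lost (adjusted p = 0.0673), and no other call changed. Same-numbered libraries did not deviate together in every pair of these comparisons. In Gcn2 -R against Yaa, r was -0.50, -0.49 and 0.41 for replicates 1, 2 and 3. Without ovary-rich libraries 2 genes were called between genotypes on Yaa, 0 on -All and 2 in the -R interaction, and slif turned to 0.46 in the -M interaction. Leaving out 1 library gave 1 to 2 calls in wDah -R, 2 to 3 in wDah -All, 1 to 2 in Gcn2 -R and in Gcn2 -M, 0 to 2, 1 to 3 and 0 to 1 between genotypes on Yaa, -R and -All, and 1 to 2 in the -R interaction. It gave slif -0.49 to 0.28 in Gcn2 -M and -0.33 to 0.44 in the -M interaction, positive in both without Gcn2 Yaa replicate 2. The cause of these moves was not tested. Among these alternatives, calls over all features were recorded for equal totals alone, so the other counts have no share beside them. With 3 libraries a group, differences within the spread of a group were not detectable.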
